A study of Mus musculus with 16 samples.

Results

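The effect of estradiol (E2) on the cultured mouse aorta was read from 8 RNA-seq libraries, 4 of aorta with E2 and 4 of aorta with ethanol vehicle, out of 16 in the series. The other 8 libraries are of liver. All animals were wild-type female C57BL/6 mice, ovariectomized at 6 to 7 weeks of age and killed 1 week later, so the vehicle group also lacked ovarian hormones. Whole aortas were held at 37 °C in DMEM, the E2 group with 10 nM 17β-estradiol and the control group with ethanol, for 4 h in both. The tissue is therefore an organ culture without blood flow, and its RNA comes from every cell type of the vessel and its surroundings. In such bulk samples fewer cells of a type and less RNA per cell cannot be told apart. The series text describes replicates pooled from 4 mice, whereas the labels also describe libraries made from a single aorta. Each library is named here by its column suffix, o1, o2, n1 or n2, whose meaning the labels do not give. Nothing links a suffix to separate animals, so p-values measure the spread between these libraries, part of which may be technical.

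Estrogens act mainly through the nuclear receptors ERα, encoded by Esr1, and ERβ, encoded by Esr2. Ligand-bound receptor binds estrogen response elements in DNA, or is tethered through other transcription factors such as AP-1, and recruits coactivators or corepressors. A membrane receptor, Gper1, and signalling by membrane-bound ERα act without direct DNA contact. In the vessel wall ERα is present in endothelium and smooth muscle, where it is known for inducing nitric oxide synthesis, limiting the response to injury and dampening inflammation. The progesterone receptor gene Pgr and Greb1 are classical ERα targets of uterus and breast.

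Promoter sequences are shown for 4 genes that the comparison turned on: the classical targets Pgr and Greb1, the muscle gene Fbxo40, and Mmp3, the gene called lower. Each is the 250 bases before an annotated transcription start, read 5′ to 3′ on the strand of the gene, from RefSeq on build GRCm38.p6. Capitals mark a motif match: a GC box (GGGCGG) in Pgr, an estrogen response half-site (GGTCA, here on the opposite strand) in Greb1, a MEF2 site in Fbxo40 and an AP-1 site (TGANTCA) in Mmp3. The windows are chr9:8899583-8899832 on the plus strand for Pgr, chr12:16800887-16801136 on the minus strand for Greb1, chr16:36990468-36990717 on the minus strand for Fbxo40 and chr9:7445572-7445821 on the plus strand for Mmp3.
Pgr: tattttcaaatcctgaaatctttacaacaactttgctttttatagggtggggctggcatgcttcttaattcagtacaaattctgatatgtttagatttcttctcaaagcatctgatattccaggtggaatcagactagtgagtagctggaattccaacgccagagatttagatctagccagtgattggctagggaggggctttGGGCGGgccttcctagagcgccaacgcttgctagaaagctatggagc
Greb1: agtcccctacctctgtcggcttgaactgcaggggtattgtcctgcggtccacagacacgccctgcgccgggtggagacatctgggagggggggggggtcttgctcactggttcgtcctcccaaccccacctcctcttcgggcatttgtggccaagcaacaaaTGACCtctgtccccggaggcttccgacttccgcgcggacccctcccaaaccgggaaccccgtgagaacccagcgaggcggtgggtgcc
Fbxo40: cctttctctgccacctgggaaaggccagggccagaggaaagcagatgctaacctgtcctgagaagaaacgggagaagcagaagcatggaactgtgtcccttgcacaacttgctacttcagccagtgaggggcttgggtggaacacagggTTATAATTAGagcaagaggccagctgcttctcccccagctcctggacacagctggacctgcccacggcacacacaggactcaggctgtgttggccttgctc
Mmp3: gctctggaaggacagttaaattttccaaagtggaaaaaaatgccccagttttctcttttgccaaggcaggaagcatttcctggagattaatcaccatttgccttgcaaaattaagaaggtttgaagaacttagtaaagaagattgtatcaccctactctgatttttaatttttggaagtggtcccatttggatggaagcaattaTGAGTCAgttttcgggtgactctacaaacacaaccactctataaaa
The GC box of Pgr lay 47 bases before the start, the half-site of Greb1 88 bases, the MEF2 site of Fbxo40 101 bases and the AP-1 site of Mmp3 46 bases.

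Motifs were searched on both strands in all 14 windows found for 11 of 13 genes, namely the 12 genes called with the replicate block and Greb1. A full palindromic estrogen response element, made of a half-site, 3 free bases and the inverted half-site, was in 0 of these windows and in 0.0639% of all 32851 windows of this length. The half-site GGTCA, which is also part of the full element, was in 4 of the 14 windows, of Fam160a1, Fbxo40 and Greb1, against 35.2% of all windows. The GC box was in 4 windows, of Camk2b, Myo18a, Pgr and Tmod1, against 32.7% of all windows. The MEF2 site of Fbxo40 and the AP-1 site of Mmp3 were the single matches to these motifs, which occur in 2.92% and 6.75% of all windows. The CArG box, the site of serum response factor, was in 0 windows, against 1.47% of all windows. A match is a string of letters and not evidence of binding, and these short windows leave out enhancers, where much ERα binding lies.

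Of 24011 genes in the table, 13698 passed the filter on low counts and were tested. Library depth, as reads assigned to genes, was 6042073 to 19823982 with vehicle and 6471319 to 16905441 with E2. The smooth muscle markers that define the vessel wall were abundant in every library: Acta2, smooth muscle α-actin, was at 3011 to 6665 CPM with vehicle and at 2816 to 7580 CPM with E2 (CPM, read counts scaled to libraries of 1e+06 reads after TMM). Myh11, smooth muscle myosin, was at 2012 to 8523 CPM and at 2651 to 15456 CPM. Endothelial markers summed to 2128 to 2433 CPM with vehicle and 1938 to 2765 CPM with E2.

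Some vehicle libraries stood apart in markers of other tissues and cell types. In vehicle n2 the 30 lymphocyte markers summed to 693 CPM, against 80.8 to 337 CPM in the other vehicle libraries and 78.0 to 156 CPM with E2. The same library held 12420 CPM of 46 cytosolic ribosomal protein genes, against 4482 to 5468 CPM in the other vehicle libraries and 3792 to 6416 CPM with E2. In vehicle o1 the liver gene Alb, albumin, stood at 379 CPM and the heart muscle gene Myh6 at 123 CPM, against at most 78.0 and 5.48 CPM in the other vehicle libraries. The 42 hepatocyte genes summed to 901 to 1423 CPM with vehicle and 781 to 1042 CPM with E2. The 55 striated muscle genes summed to 438 to 1211 CPM with vehicle and 558 to 1448 CPM with E2. None of these lists was wholly absent from any group, and their part in the results below was not tested.

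**Figure D1:**
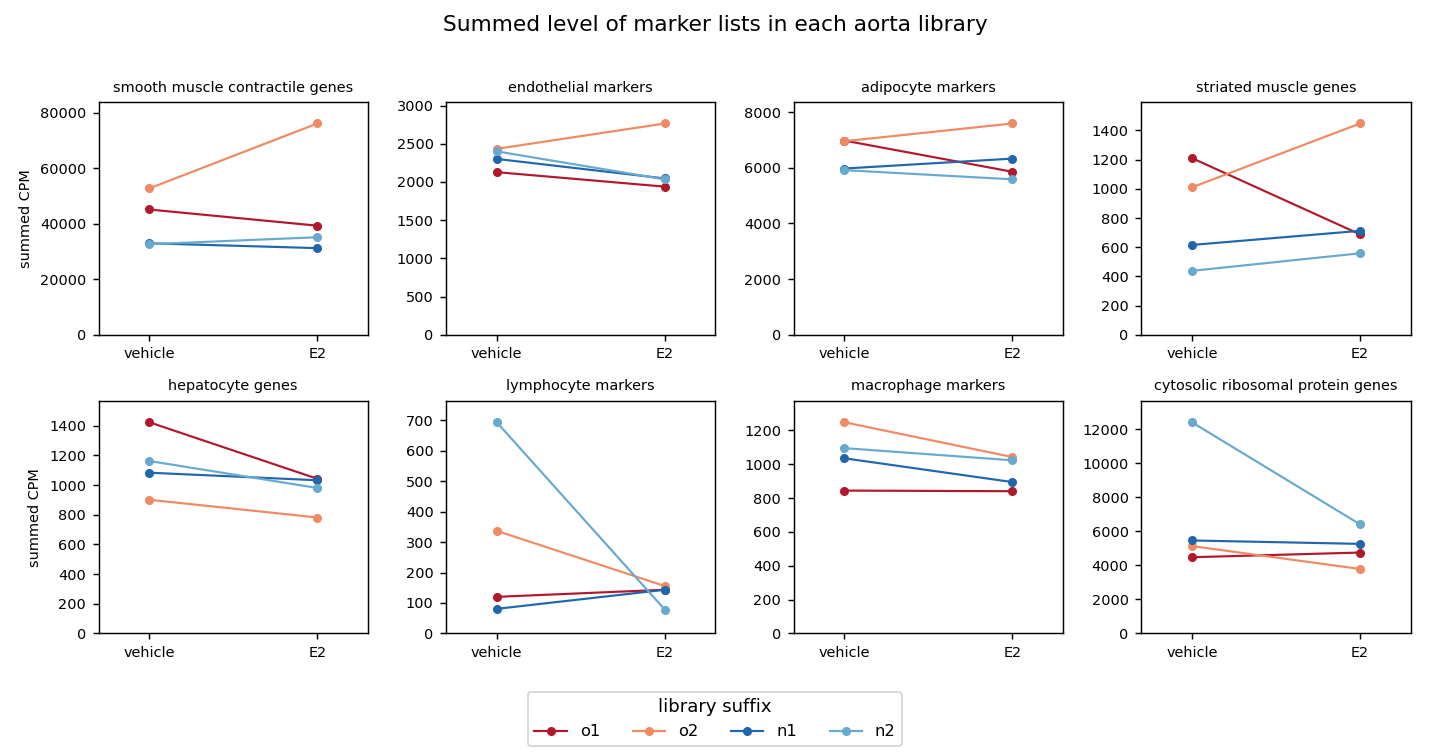
Summed CPM of 8 gene lists in the 4 vehicle and 4 E2 libraries of aorta, 1 point per library with lines joining libraries of a suffix. Vehicle n2 is the highest library for lymphocyte markers, at 693 CPM, while the E2 libraries lie between 78.0 and 156 CPM.

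E2 changed few genes by the tests used. With library type (o1, o2 and n) as the covariate, edgeR's quasi-likelihood test called 0 of 13698 genes at a Benjamini-Hochberg adjusted p under 0.05, 0% of those tested. The lowest adjusted p, 0.0898, belonged to Pgr and Caskin2. At an unadjusted p under 0.05 there were 495 genes, 3.61% of those tested, of which 214 were higher and 281 lower with E2. With that covariate, 24 genes were called by DESeq2 and 0 by limma voom. With the 4 suffixes as a replicate block, edgeR called 12 genes, 0.0876% of those tested, 11 higher (0.0803%) and 1 lower (0.00730%) with E2. The suffix was taken to pair the libraries from their correlations, which is an assumption. DESeq2 without the block called 11 of these 12, all but Desi2. Below, "called" refers to edgeR's test on all 8 libraries, without or with the block, unless DESeq2 is named. DESeq2 with the block called 92 genes, 65 higher and 27 lower, including all 12. Leaving the o2 pair out of edgeR's blocked fit gave 0 calls, and leaving the n2 pair out gave 35, which included all 12. Without the block, leaving out vehicle n2 gave 17 calls, 8 of them among the 12, and leaving out any other single library gave 0. In that fit o1 and o2 are each a library type, so an o library without its partner adds nothing to the E2 estimate. Leaving out the vehicle or the E2 library of o1 or o2 therefore acts as leaving out that pair, here and below.

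All 12 genes changed in the same direction in each of the 4 suffix pairs, as did 14.4% of all genes tested (7.40% higher and 7.02% lower). In each of them the E2 and vehicle libraries did not overlap within the o libraries or within the n libraries, which held for 3.45% of all genes (1.80% higher and 1.65% lower). Over all 8 libraries together, 6 of the 12 did not overlap (Camk2b, Fbxo40, Mmp19, Myo18a, Pgr and Tmod1), against 58 genes or 0.423% of those tested. The fit chose the 12 on these same libraries, so these counts describe the calls and are not separate support. The fold changes were of like size in both letters, for example 1.87 in the o and 2.07 in the n libraries for Pgr, 1.61 and 1.98 for Tmod1 and −1.31 and −1.28 for Mmp3. In the o libraries alone, with 1 residual degree of freedom, edgeR's test called 33 genes, 16 higher and 17 lower, including all 12. In the n libraries alone, which share 1 library type and were fitted unpaired, it called 0, with 10 of the 12 at an unadjusted p under 0.05. The o libraries were fitted as pairs, so the 33 and 0 calls come from unlike designs. Whether the effect differed between o and n libraries was not tested.

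**Figure D2:**
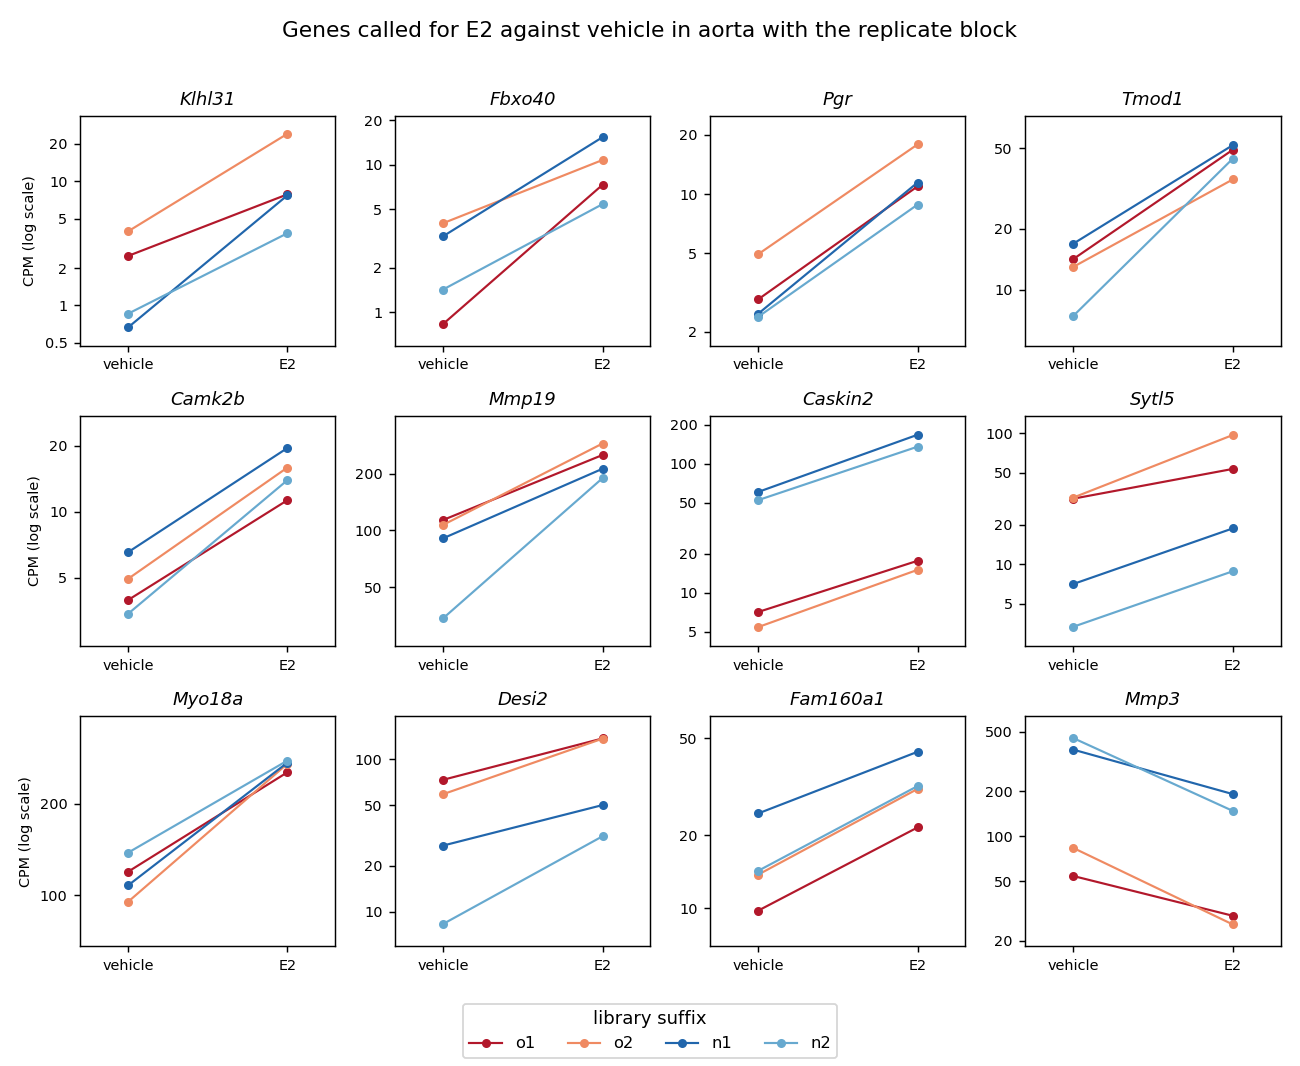
CPM on a log axis of the 12 genes called with the replicate block, 1 point per library, vehicle beside E2, with lines joining libraries of the same suffix. Every line rises from vehicle to E2 except those of Mmp3, which fall in all 4 pairs.

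The steroid receptor among the 12 was Pgr, which encodes the progesterone receptor. Its level was 2.92, 4.95, 2.47 and 2.38 CPM in vehicle o1, o2, n1 and n2, and 10.9, 17.9, 11.4 and 8.84 CPM in the E2 libraries of the same suffixes. The lowest E2 library stood above the highest vehicle library. The group means were 3.18 ± 1.203 and 12.3 ± 3.90 CPM (SD, n = 4), and the log2 fold change was 1.97 ± 0.23 (SE), at an adjusted p of 0.0898 without and 0.014 with the replicate block (edgeR). These values rested on 165 vehicle and 701 E2 reads over the 4 libraries of each group.

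Greb1, a growth regulator and coactivator of ERα, moved alongside Pgr but did not pass the threshold. With vehicle it was at 0.834, 0.802, 0.237 and 0.571 CPM in o1, o2, n1 and n2, and with E2 at 2.37, 3.17, 3.28 and 2.33 CPM. The groups did not overlap, although the vehicle level came from only 27 reads in all, against 170 reads with E2. The log2 difference was 2.33 ± 0.45 (SE), with adjusted p of 0.517 without and 0.163 with the block in edgeR, while DESeq2 without the block called the gene. With the block DESeq2 gave it no adjusted p.

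The receptors themselves showed no such separation. Esr1 stood at 11.5, 15.8, 5.83 and 4.66 CPM in vehicle o1, o2, n1 and n2 and at 13.1, 23.3, 5.44 and 4.37 CPM with E2, so the groups overlapped. The log2 difference was 0.15 ± 0.23 (SE), 0.41 in the o libraries alone and −0.088 in the n libraries. Esr2 had 3 reads with vehicle and 2 with E2 and could not be tested. Gper1, with 40 and 43 reads, differed by −0.27 ± 0.49 on the log2 scale. Among 16 tested receptors and coregulators, 11 were higher and 5 lower with E2, with a median log2 difference of 0.11 against −0.0083 over all genes, and Pgr was the single one called. Without vehicle o2 the split was 7 higher and 10 lower with a median of −0.0067. Without E2 o2, in effect the same removal, it was 7 and 9 with −0.0037.

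Further targets of estrogen from uterus and breast, Greb1 among them, did not move as a group. Of 44 tested, 25 were higher and 19 lower, with a median of 0.041, and none was called in either edgeR fit. DESeq2 called 1 of them, Greb1, without the block and 1, Tiparp, with it. The blocked DESeq2 fit gave Greb1 no adjusted p and so did not judge it. Without vehicle o1 the split was 21 higher and 23 lower with a median of −0.0037. Without E2 o1, in effect the same removal, it was the same. The water channel gene Aqp5 was at 0 in all o libraries, and at 1.33 and 0.856 CPM with vehicle and 6.60 and 7.02 CPM with E2 in n1 and n2. Its log2 difference of 2.57 ± 0.50 had a blocked adjusted p of 0.205 (edgeR). Areg, which encodes the growth factor amphiregulin, was at 3.75, 6.35, 11.5 and 9.13 CPM with vehicle and at 2.37, 2.73, 3.97 and 7.58 CPM with E2. That difference of −0.90 ± 0.30 on the log2 scale is opposite to the induction known from uterus, and it did not pass the threshold.

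Of the 12, 4 belong to the striated muscle list: Klhl31, Fbxo40, Tmod1 and Camk2b. Klhl31 encodes a kelch-like protein of striated muscle. It was at 2.50, 3.94, 0.664 and 0.856 CPM with vehicle and rose to 7.84, 24.1, 7.70 and 3.81 CPM with E2 in o1, o2, n1 and n2. The rise of 2.55 ± 0.36 (SE) on the log2 scale had a blocked adjusted p of 0.019 (edgeR). The n2 library with E2 lay below the o2 library with vehicle, so the groups overlapped over all 8 libraries and were apart within o and within n.

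Fbxo40, a muscle-restricted F-box protein known for marking the insulin receptor substrate IRS1 for degradation, rose with it. Vehicle libraries held 0.834, 4.01, 3.27 and 1.43 CPM and E2 libraries 7.29, 10.7, 15.3 and 5.40 CPM. Its rise was 2.06 ± 0.45 (SE), with a blocked adjusted p of 0.039 (edgeR), the highest of the 12. Fbxo40 is also the gene whose printed promoter holds the MEF2 site.

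Tmod1 encodes tropomodulin, which caps the pointed ends of actin filaments. It rose from 14.2, 12.97, 16.9 and 7.42 CPM with vehicle to 49.1, 35.03, 51.7 and 44.3 CPM with E2, on means of 12.9 ± 3.98 and 45.0 ± 7.34 CPM (SD, n = 4). The change of 1.79 ± 0.26 (SE) had a blocked adjusted p of 0.0087 (edgeR). All E2 libraries were well above all vehicle libraries, and n2, with the lowest vehicle level, had the widest difference.

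Camk2b encodes the β subunit of calcium/calmodulin-dependent protein kinase II. It was at 3.96, 4.95, 6.54 and 3.43 CPM with vehicle and at 11.3, 15.9, 19.6 and 14.0 CPM with E2, a rise of 1.67 ± 0.27 (SE) with a blocked adjusted p of 0.017 (edgeR). Myo18a, an unconventional myosin that is in none of the lists, was at 119, 95.0, 108 and 138 CPM with vehicle and 254, 271, 273 and 278 CPM with E2. The E2 libraries of Myo18a lay within a narrow range, 269 ± 10.3 CPM (SD, n = 4), and its rise was 1.23 ± 0.16 (SE) with a blocked adjusted p of 0.0087 (edgeR). Neither gene overlapped between the groups.

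The striated muscle list as a whole did not move one way. Of its 39 tested members 19 were higher and 20 lower, with a median of −0.024. With the block 4 members were called, all of them higher, where 0.0876% of all genes were called. At an unadjusted p under 0.05 without the block, 5 were higher and 2 lower, beside 1.56% and 2.05% of all genes. In all 4 pairs 5 were higher and 2 lower, beside 7.40% and 7.02% of all genes. All lists were chosen with earlier results of these data known, so such shares describe them and are not separate support. Without vehicle o1 the split was 24 higher and 16 lower with a median of 0.13. Without E2 o1, in effect the same removal, it was 25 and 18 with 0.12. In the o libraries alone edgeR called the same 4 members higher, and Actc1, Lmod2, Lmod3, Myh6, Tnnt2 and Ttn lower. Fbxo32, the muscle ubiquitin ligase atrogin-1, was at 38.3, 78.5, 36.6 and 14.3 CPM with vehicle and 50.5, 178, 73.3 and 39.6 CPM with E2. Its blocked adjusted p was 0.074 in edgeR and 0.000125 in DESeq2. Fbxo32, Myh6 and the muscle genes Mylk2, Mef2a, Ttn, Tnnt2, Xirp1, Actc1, Casq1, Lmod2 and Lmod3 were picked for mention after their values were seen. So were Arhgap27, Ucp1, Sfrp4, Tgfb2, Tiparp, Cxcl1 and Cxcl2.

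Ttn and Tnnt2, which encode sarcomere proteins, had other values than the 4 called genes. Ttn, the giant elastic protein titin, was at 172, 64.5, 1.99 and 5.71 CPM with vehicle and at 28.8, 38.3, 1.199 and 2.23 CPM with E2. The log2 difference was −1.41 ± 0.41 (SE), with a blocked adjusted p of 0.159 in edgeR and 0.00086 in DESeq2. Tnnt2, heart troponin T, was at 118 CPM in vehicle o1 and at 42.1, 4.41 and 7.42 CPM in the other vehicle libraries, and E2 libraries held 14.6, 42.0, 3.46 and 9.82 CPM, so Tnnt2 was lower in o1 and n1, near level in o2 and higher in n2. The vehicle o1 library was the highest for Ttn, Tnnt2 and Myh6. Of the 4 called genes, Klhl31 was lower there than in vehicle o2 only, and Tmod1 lower than in vehicle n1 only. Camk2b was lower there than in vehicle o2 and n1, and Fbxo40 was at its lowest. What the muscle RNA of vehicle o1 adds to these values was not tested. The summed level of the list overlapped between the groups: the 55 genes summed to 1211, 1010, 615 and 438 CPM with vehicle and to 688, 1448, 712 and 558 CPM with E2.

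**Figure D3:**
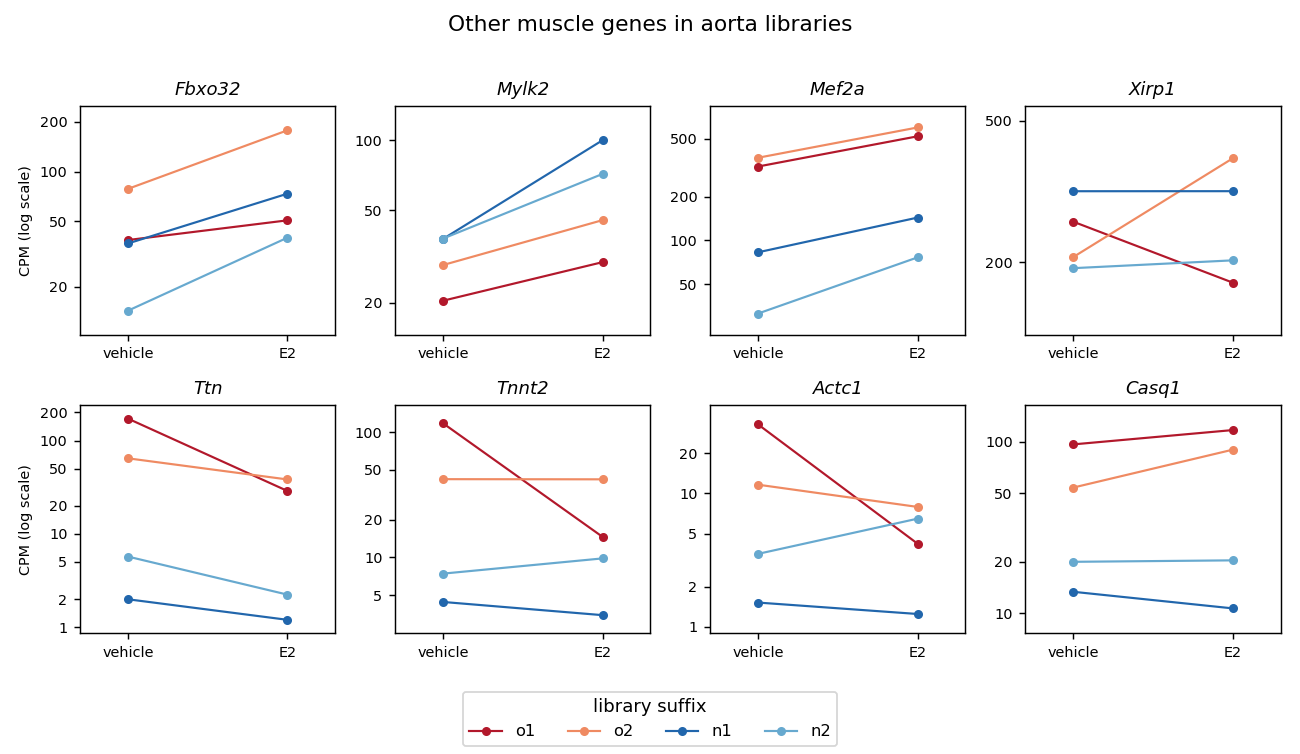
CPM on a log axis of 8 muscle genes that edgeR did not call on all 8 libraries, vehicle beside E2, 1 point per library with lines joining libraries of a suffix. Lines of Fbxo32, Mylk2 and Mef2a rise in all 4 pairs and those of Ttn fall in all 4, while Xirp1, Tnnt2, Actc1 and Casq1 cross or stay level.

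A pair of further genes that act in muscle regulation were higher with E2 in each pair and were not called by edgeR on all 8 libraries. Mylk2, a myosin light chain kinase of skeletal muscle, was at 20.4, 29.1, 37.6 and 37.8 CPM with vehicle and 29.9, 45.3, 99.9 and 71.6 CPM with E2. Mef2a, a transcription factor that activates muscle genes, was at 323, 371, 82.9 and 31.4 CPM with vehicle and 522, 600.3, 144 and 76.5 CPM with E2. Their blocked adjusted p were 0.116 and 0.071 in edgeR and 0.00115 and 2.52e-05 in DESeq2, which without the block called Mylk2 (0.0251) and not Mef2a (0.728). Of 30 tested contractile genes of smooth muscle, 23 were higher and 7 lower with a median of 0.12, and edgeR called none, while DESeq2 called Mrvi1 with the block. Without vehicle o2 or without E2 o2 the split was 17 and 13 with a median of 0.035. Acta2 differed by 0.00 ± 0.18 (SE) on the log2 scale, with a sign that turned with the setting, and Myh11 by 0.27 ± 0.20.

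Matrix metalloproteinases gave one call in each direction. Mmp19, an enzyme that cleaves basement membrane and aggrecan, was at 114, 107, 90.8 and 34.3 CPM with vehicle and rose to 251, 289, 212 and 189 CPM with E2. The means were 86.4 ± 36.1 and 235 ± 43.8 CPM (SD, n = 4), without overlap, and the rise was 1.48 ± 0.28 (SE) with a blocked adjusted p of 0.018 (edgeR). Mmp3, stromelysin-1, fell from 54.2, 83.5, 379 and 453 CPM with vehicle to 29.4, 25.7, 191 and 148 CPM with E2. The change of −1.30 ± 0.19 (SE) had a blocked adjusted p of 0.017 (edgeR). Mmp3 was several times more abundant in n than in o libraries, so its groups overlapped over all 8 libraries and separated within each letter.

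Of 33 tested metalloproteinases and inhibitors, 14 were higher and 19 lower with a median of −0.022. Without vehicle o1 or without E2 o1 the split was 20 and 13 with 0.032. Timp1, which inhibits these enzymes, was at 36.7, 46.6, 292 and 567 CPM with vehicle and 39.6, 20.4, 187 and 233 CPM with E2, lower in 3 of 4 pairs and called by DESeq2 with the block only. The 44 collagens and elastic fibre genes were 22 higher and 22 lower, with a median of −0.0043 and 0 called by edgeR or DESeq2. This split rested on single libraries: it was 39 and 5 with a median of 0.25 without vehicle n1, 16 and 28 with −0.098 without vehicle n2, and 27 and 17 with 0.061 with the block.

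The remaining 4 called genes act in trafficking and protein modification, or have roles that are little described. Caskin2, a scaffold protein that is known to act in endothelium, was at 7.08, 5.41, 60.4 and 52.2 CPM with vehicle and 17.7, 15.05, 168 and 136 CPM with E2. Its rise of 1.42 ± 0.17 (SE) had a blocked adjusted p of 0.0087 (edgeR) and was of like size in all 4 pairs, although the level itself was several times higher in n libraries. Sytl5, a synaptotagmin-like effector of vesicle transport, was at 31.7, 32.3, 7.06 and 3.33 CPM with vehicle and 53.4, 96.98, 18.8 and 8.84 CPM with E2, a rise of 1.28 ± 0.31 (SE).

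Desi2, a protease of the desumoylating family, was at 73.3, 59.0, 27.1 and 8.28 CPM with vehicle and 137, 137, 50.1 and 31.2 CPM with E2, a rise of 1.12 ± 0.33 (SE). Fam160a1 was at 9.79, 13.8, 24.6 and 14.3 CPM with vehicle and 21.5, 31.0, 44.0 and 31.8 CPM with E2, a rise of 1.05 ± 0.22 (SE). Their blocked adjusted p were 0.038 for both, and 0.022 for Sytl5 (edgeR). Without the block the adjusted p of these 3 genes were between 0.731 and 1, the furthest from the threshold of the 12 together with Fbxo40.

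**Figure D4:**
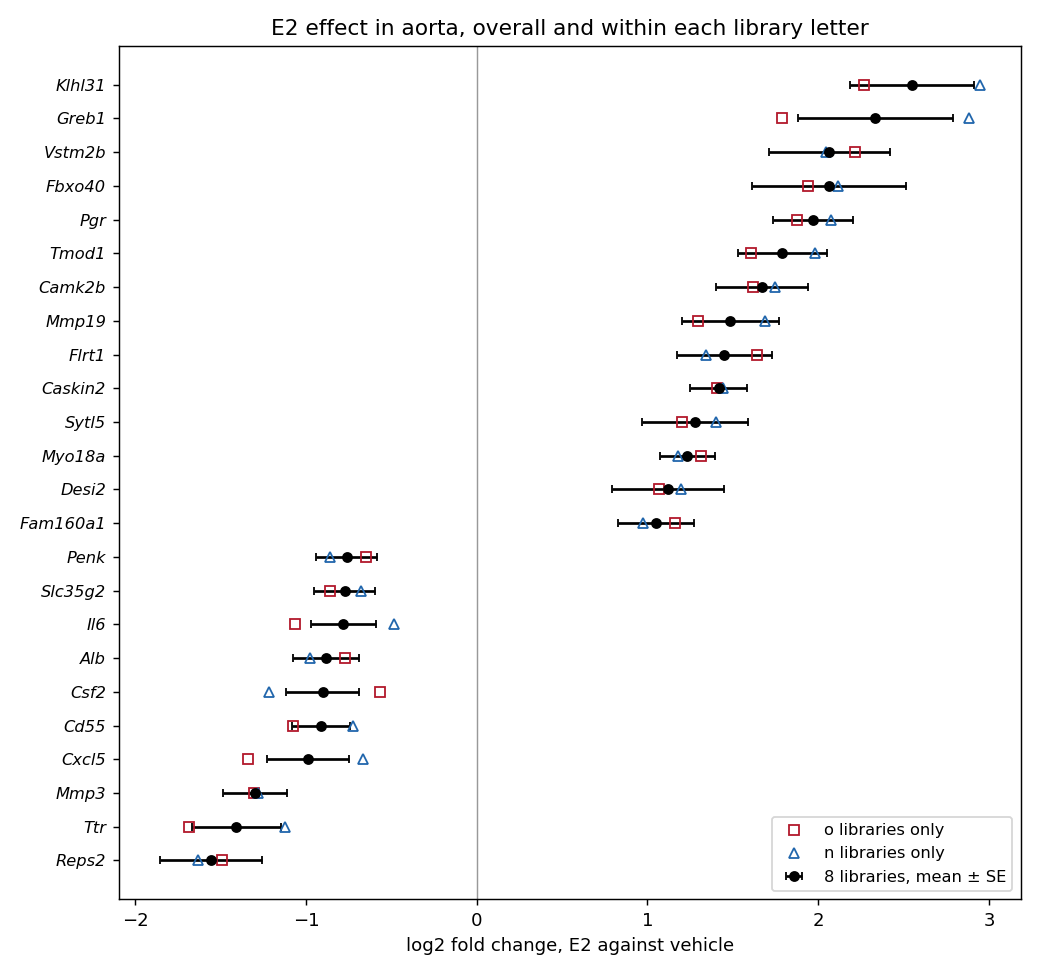
Log2 fold change of E2 against vehicle, on the x axis, for the 12 called genes and 12 others of low p, from all 8 libraries (black, ± SE), from the o libraries alone (squares) and from the n libraries alone (triangles). The 3 estimates of a gene lie on the same side of 0 for all genes drawn, which were chosen partly for having the same direction in all pairs.

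Genes with the next lowest p on the higher side included Kcns3, Vstm2b, Flrt1 and Arhgap27, which DESeq2 called with and without the block. Kcns3, a modifying subunit of voltage-gated potassium channels, was at 1.67, 3.81, 8.96 and 3.52 CPM with vehicle and 4.01, 11.7, 21.5 and 19.9 CPM with E2. Its log2 difference of 1.61 ± 0.31 had a blocked adjusted p of 0.053 (edgeR). Vstm2b, Flrt1 and Arhgap27 had log2 differences of 2.06, 1.45 and 1.52, with blocked adjusted p of 0.061, 0.115 and 0.103 (edgeR), and were higher with E2 in all 4 pairs. Mrvi1, the inositol trisphosphate receptor-associated substrate of cGMP kinase that mediates relaxation of smooth muscle, was at 45.6, 58.2, 54.2 and 27.2 CPM with vehicle and 63.6, 108, 104 and 66.2 CPM with E2. Its blocked adjusted p was 0.074 in edgeR and 0.000146 in DESeq2.

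On the lower side they included Cd55, Ttr, Reps2, Slc35g2 and Penk. DESeq2 called Cd55, Ttr and Alb without the block, and all of these with it. Cd55, a brake on complement activation, was at 92.9, 166, 16.7 and 13.7 CPM with vehicle and 49.6, 70.4, 9.46 and 8.84 CPM with E2, with a log2 difference of −0.91 ± 0.17 and a blocked adjusted p of 0.068 (edgeR). Penk, the precursor of enkephalin, was at 110.0, 131, 94.0 and 131 CPM with vehicle and 84.8, 69.6, 63.6 and 58.9 CPM with E2, without overlap. Ttr, transthyretin, and Alb are liver genes, with log2 differences of −1.41 ± 0.26 and −0.88 ± 0.19. Alb was at 379, 78.0, 38.7 and 50.5 CPM with vehicle and 163, 62.0, 22.9 and 21.96 CPM with E2. Of 29 tested hepatocyte genes 3 were higher and 26 lower, with a median of −0.63, and 16 were lower in all 4 pairs. In all genes 7.02% were lower in all pairs. Median pair differences of this list in o1, o2, n1 and n2 were −0.517, −0.325, −0.214 and −0.8. Without vehicle n2 the median was −0.39, with 4 higher and 27 lower. The part of vehicle o1, the library highest in Alb, was not tested.

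Cytokines and leukocyte adhesion genes were mostly lower with E2. Of 39 tested, 8 were higher and 31 lower, with a median of −0.39 against −0.0083 over all genes. At an unadjusted p under 0.05 there were 0 higher and 10 lower, beside 1.56% and 2.05% of all genes. In all 4 pairs 1 was higher and 13 were lower, beside 7.40% and 7.02% of all genes. EdgeR called none with or without the block. DESeq2 called none without it and 6 lower with it: Ccl2, Csf2, Cxcl1, Cxcl2, Cxcl5 and Il6. Over all 13698 genes tested, DESeq2 with the block called 27 lower. Without vehicle n2 the split was 6 higher and 33 lower with a median of −0.39. It was 15 and 24 with −0.27 without vehicle n1, 9 and 30 with −0.26 without vehicle o2 or without E2 o2, and 11 and 28 with −0.22 in the blocked fit without the o2 pair.

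Il6, the cytokine interleukin-6, was at 228, 175, 1281 and 1051 CPM with vehicle and 112, 80.7, 939 and 714 CPM with E2. The E2 libraries were lower within o and within n, by −0.78 ± 0.19 (SE) on the log2 scale, with a blocked adjusted p of 0.14 in edgeR and 0.000538 in DESeq2. Csf2, the growth factor GM-CSF, was at 133, 85.9, 36.2 and 51.4 CPM with vehicle and 103, 50.3, 20.8 and 16.4 CPM with E2. The neutrophil chemokine Cxcl5 was at 24.2, 19.2, 82.9 and 45.6 CPM and at 9.48, 7.57, 41.8 and 38.7 CPM. The monocyte chemokine Ccl2 was at 544, 259.9, 734 and 816 CPM and at 364, 159.8, 576 and 405 CPM. Each was lower in all 4 pairs, with blocked adjusted p of 0.178 for Csf2 and Cxcl5 and 0.195 for Ccl2 in edgeR, and 0.00528, 0.00641 and 0.00428 in DESeq2. Macrophage markers were lower in 26 of 28 tested genes with a median of −0.14 (18 of 28 with −0.14 without vehicle n1, 25 of 28 with −0.28 without vehicle n2), and summed to 844 to 1248 CPM with vehicle and 840 to 1042 CPM with E2, and their part in the cytokine values was not tested.

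Nos3, endothelial nitric oxide synthase, was at 59.0, 68.0, 151 and 186 CPM with vehicle and 61.3, 87.0, 113 and 137 CPM with E2. The groups overlapped and the log2 difference was −0.12 ± 0.19 (SE), 0.22 in the o libraries alone and −0.41 in the n libraries alone. Of 30 endothelial markers tested, 13 were higher and 17 lower with a median of −0.061, and 18 and 11 with 0.15 without vehicle n1. Cldn5, a tight junction protein of endothelium, was at 6.46, 2.14, 171 and 256 CPM with vehicle and 3.65, 1.23, 89.4 and 146 CPM with E2, and the transcription factor gene Sox18 at 6.88, 2.07, 16.0 and 26.5 CPM and at 8.21, 3.96, 53.4 and 44.3 CPM. They lay in opposite directions in all 4 pairs, at blocked adjusted p of 0.092 and 0.259 in edgeR and 0.00171 and 0.0387 in DESeq2.

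Of 45 vasoactive and vasoprotective genes, 19 were higher and 26 lower with a median of −0.11. Without vehicle n1 they were 26 and 19 with 0.105, and without vehicle n2 22 and 23 with −0.0036. Adra1d, the α1D adrenergic receptor that contracts the aorta, was at 5.63, 4.14, 34.5 and 24.4 CPM with vehicle and 5.11, 12.3, 74.7 and 81.1 CPM with E2, higher in 3 of 4 pairs. Edn1, which encodes the vasoconstrictor endothelin-1, was at 5.001, 6.42, 8.34 and 4.85 CPM with vehicle and 6.93, 9.86, 14.99 and 9.96 CPM with E2. Their blocked adjusted p were 0.156 and 0.492 in edgeR and 0.00286 and 0.264 in DESeq2. Among 44 ion channels of the vessel wall 28 were higher and 16 lower with a median of 0.12. The split was 22 and 22 with a median of −0.0077 without vehicle n2. In the blocked fit without the whole n2 pair it was 28 and 14 with 0.12.

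The Notch and Wnt lists leaned higher, and the lean rested in part on vehicle n2. Median pair differences in o1, o2, n1 and n2 were 0.0068, 0.29, −0.024 and 0.17 for Notch. For Wnt they were 0.031, 0.245, −0.0835 and 0.31. Of 25 Notch pathway genes 18 were higher and 7 lower with a median of 0.11, which became 14 and 11 with a median of 0.012 without vehicle n2. Heyl and Hey2, transcription factors induced by Notch, were higher in all 4 pairs. Heyl was at 11.04, 13.6, 27.7 and 34.4 CPM with vehicle and 12.2, 31.3, 63.2 and 55.4 CPM with E2, and Hey2 at 20.6, 43.2, 11.9 and 5.99 CPM and at 27.9, 72.7, 17.3 and 11.4 CPM. EdgeR called neither, and DESeq2 called Heyl with the block, at an adjusted p of 0.0173. Wnt pathway genes were 30 higher and 11 lower of 41 with a median of 0.15, and 22 and 19 with 0.024 without vehicle n2. The TGF-beta and BMP list was 21 higher and 20 lower with a median of 0.023, and 12 and 30 with −0.12 without it. EdgeR called no gene of these 3 lists, and DESeq2 with the block also called Tgfb2 higher and Inhba lower.

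Genes of fat metabolism were higher more often than lower over the 8 libraries. Of 25 genes of fatty acid and triglyceride synthesis, 20 were higher and 5 lower with a median of 0.30, and 21 and 4 with 0.24 without vehicle n2. Their median pair differences in o1, o2, n1 and n2 were −0.039, 0.41, 0.335 and 0.304, so pair o1 did not share the lean. At an unadjusted p under 0.05, 4 were higher and 0 lower, beside 1.56% and 2.05% of all genes, and 8 were higher in all 4 pairs, beside 7.40%. EdgeR called none, and DESeq2 with the block called Gpam. Gpam, the first enzyme of triglyceride synthesis, was at 11.3, 12.03, 14.2 and 7.23 CPM with vehicle and 22.2, 20.2, 25.4 and 12.6 CPM with E2. Fasn, fatty acid synthase, was at 558, 746, 1946 and 1867 CPM with vehicle and 543, 1126, 3343 and 2841 CPM with E2, higher in 3 of 4 pairs. Of 32 fatty acid oxidation genes, 23 were higher and 9 lower with a median of 0.17, and DESeq2 with the block called Cpt1b and Ehhadh. Adipocyte markers, which mark the fat around the vessel, were 19 higher and 6 lower of 25 with a median of 0.085, and 14 and 11 with 0.14 without vehicle n2. Their sum was 5914 to 6977 CPM with vehicle and 5583 to 7590 CPM with E2. The brown fat gene Ucp1 was at 106, 361, 610.0 and 412 CPM with vehicle and 107, 549.6, 927 and 553 CPM with E2. The part of fat tissue in these list counts was not tested.

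Several shifts of lists depended on vehicle n2. All 29 tested lymphocyte markers were lower with E2, with a median of −1.46. Without vehicle n2 they were 12 higher and 17 lower with −0.21. Of 45 ribosomal protein genes 4 were higher and 41 lower with a median of −0.39, and 12 and 33 with −0.10 without vehicle n2. Cell cycle genes were 7 higher and 28 lower of 35 with a median of −0.24, and 18 and 17 with 0.037 without it. The 37 respiratory chain genes went from 16 higher and 21 lower, median −0.037, to 33 higher and 4 lower, median 0.14. Adventitial fibroblast markers did not: they were 1 higher and 20 lower of 21 with a median of −0.13, and 3 and 18 with −0.16 without vehicle n2. Without vehicle n1 they were 8 and 13 with −0.10.

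**Figure D5:**
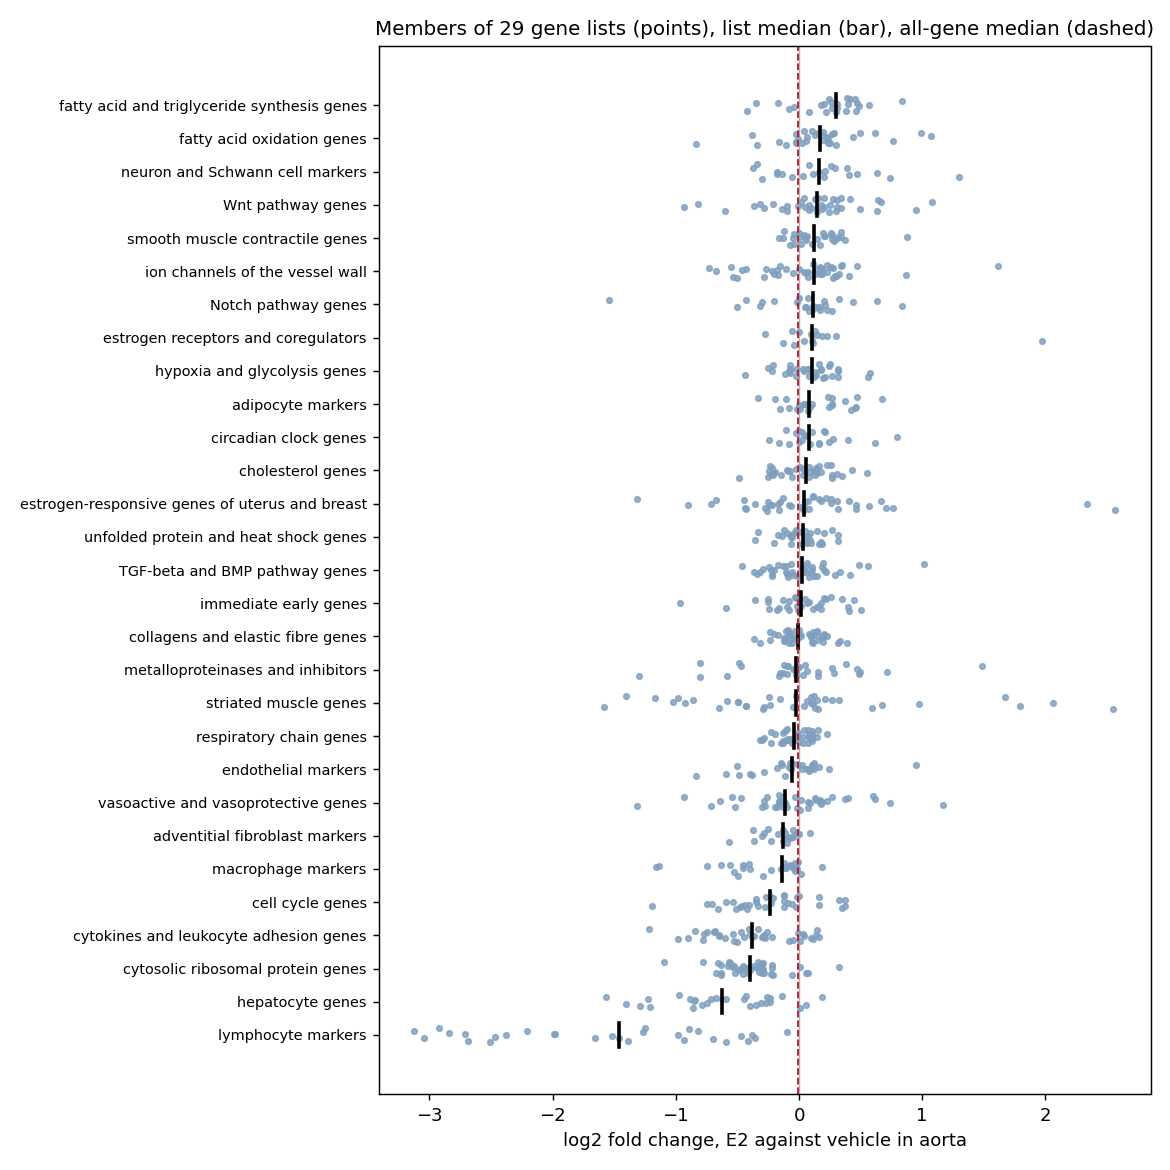
Log2 fold change of E2 against vehicle for the tested members of each gene list (points), with the list median (bar) and the median over all genes, −0.0083 (dashed). Lymphocyte markers lie lowest, with a median of −1.46, and fatty acid and triglyceride synthesis genes highest, at 0.30.

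The series also asks how the aorta differs from the liver, whose 8 libraries had the same treatments. An interaction term over 14190 genes compared the response of aorta with that of liver, and edgeR's test called 0 of them without the block, with 761 at an unadjusted p under 0.05 and a lowest adjusted p of 0.218. With the block it called 1, Sfrp4, which encodes a secreted Wnt inhibitor. Of the 12 genes called in aorta, 10 had an unadjusted p under 0.05 for the difference, beside 761 of all 14190 genes. The lowest adjusted p among the 12 was 0.45 (edgeR). The 10 include Pgr, Klhl31 and Tmod1, which were below the count filter in liver, so their differences rest on very low liver counts. Fbxo40, also below that filter, had a difference of −2.87 ± 1.80 (SE), opposite to its rise in aorta. The 12 were chosen by the aorta values that enter this difference. In liver 7 of the 12 had enough counts to be tested. Camk2b, at 0.30 ± 0.57 (SE) in liver, and Sytl5, at 0.16 ± 0.26, had the same sign as in aorta, and the other 5 had the opposite sign. The share of opposite signs over all genes was not counted, so no conclusion is drawn from this count. Caskin2, at −0.20 ± 0.33 (SE) in liver, and Fam160a1, at −0.23 ± 0.34, lay within 1 SE of 0, and Desi2 was at −0.55 ± 0.47. Mmp19 differed by 1.48 ± 0.28 (SE) in aorta and −0.45 ± 0.24 in liver, and Myo18a by 1.23 ± 0.16 and −0.12 ± 0.21. Pgr, Klhl31, Fbxo40, Tmod1 and Mmp3 were below the count filter in liver, so an effect there was not detectable at this depth.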

How the data were processed

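The authors deposited 1 table of read counts per gene symbol for 16 libraries. The tools named in the submitters' processing notes are Bowtie 0.12.5, HTSeq 0.4.5p7 and edgeR 3.4.2, and the build is mm9. Neither annotation nor strand setting is given in the sources used here, and reads of overlapping or antisense genes may be mixed. Values deposited by the authors were entered as estimated counts because each column ends with a percentage, and all gene values were whole numbers. Another 8 lines name no gene and were left out. They include reads in no gene, 52.9% to 73.6% of an aorta library, and ambiguous reads, 0.0513% to 0.523%. Per the labels, libraries were made by 2 kits, from 50 ng or 600 ng of RNA.

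Columns were assigned to groups by tissue and treatment in their names. Counts were filtered (filterByExpr, minimum count 10, minimum total 15), scaled by TMM and tested with edgeR 4.0.16 in R 4.3.3 (glmQLFit, glmQLFTest) with library type (o1, o2, n) as covariate, and p-values were Benjamini-Hochberg adjusted with a threshold of 0.05. SE is |log2 fold change| over √F of the test. Pair differences are of log2(CPM + 1). DESeq2 1.42.0 and limma 3.58.1 (voom) were alternatives, with other scalings, filters, covariates and left-out libraries, and a correction for transcript length (GENCODE annotation) was added after seeing the data. The scripts were tested on simulated data.

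The suffix was taken as pairing the libraries: deviations from the group means correlated by 0.903, 0.924, 0.919 and 0.892 for o1, o2, n1 and n2 across 13698 genes, and by 0.491 (o) and 0.423 (n) with the mean of each letter removed. Within a letter the deviations of a group mirror each other, so exchanging n1 and n2 of a group would turn the sign, and the pairing remains an assumption. The members and the 29 gene lists (1015 of 1019 symbols in the table) were chosen with earlier results of these data known. Genes named are those past the threshold in either fit, the 10 higher and 10 lower with the lowest p that had the same sign in all pairs and a mean of at least 10 counts, up to 4 members per list with the lowest p, and defining genes of receptors and cell types. Others are named as chosen after their values were seen. Promoters came from RefSeq on GRCm38.p6, matched by symbol.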

Additional observations from a re-analysis of the deposited data

Results flagged for a closer look

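Of 78 groups of 4 values checked for a sample far from the others, 4 had one, and chance gives about 1 in 20. The total count of E2 o1 was 6471319, against 16030000 to 16910000 in the other E2 libraries (rounded). Alb was at 379 CPM in vehicle o1, against 38.7 to 78.0 CPM in the other vehicle libraries. Endothelial markers summed to 2765 CPM in E2 o2, against 1938 to 2045 CPM in the other E2 libraries. Lymphocyte markers summed to 78.0 CPM in E2 n2, against 143 to 156 CPM in the other E2 libraries.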

How the results depend on the processing

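The count of E2 calls in aorta, 0 as fitted, depended on the replicate block, the tool and the libraries. It was 12 with the replicate block (4 suffixes) and 12 with the block and RLE scaling, 92 with the block and DESeq2, 24 with DESeq2 alone and 33 in the o libraries. It ranged from 0 to 17 when each library was left out, 17 being without vehicle n2, and from 0 to 35 when each suffix pair was left out of the blocked fit (12, 0, 11 and 35 for o1, o2, n1 and n2). With a correction for transcript length, added after seeing the data, it was 1 (Caskin2), or 19 with the block. It stayed at 0 with 2 library types, no library type term, RLE or upper quartile scaling, voom, no filter (18989 genes), a minimum count of 30 and the n libraries alone. The o libraries alone were fitted as pairs and the n libraries alone unpaired. All 12 genes were among the calls of the blocked DESeq2 fit and 11 of them among those of DESeq2 alone. The tissue difference went from 0 calls to 1, Sfrp4, with the replicate block. The cause of these changes was not tested.

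The log2 difference correlated with transcript length across 13623 genes (Spearman 0.229), by −0.118, 0.221, 0.0489 and 0.278 in pairs o1, o2, n1 and n2. With the length correction, without the block, the median of vasoactive and vasoprotective genes went from −0.11 to −0.0096. That of receptors and coregulators went from 0.11 to 0.052 and that of cytokines and leukocyte adhesion genes from −0.39 to −0.29. The median of smooth muscle contractile genes stayed at 0.12.

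Of the genes named, 8 changed sign under a setting, none of them called. Acta2 was −0.0052 with the replicate block, −0.0017 with upper quartile scaling, −0.0026 with voom, −0.010 at a minimum count of 30, −0.028 in the n libraries, −0.0011 with the block and DESeq2 and −0.0012 with the block and RLE. With the block and without pair o2 or n2 it was −0.071 or −0.0085. Without pair o2, Ep300 was −0.030 and Esr1 −0.0030, and without pair n1, Nos3 was 0.020. Leaving out each library in turn, without the block, the ranges were −0.090 to 0.13 for Acta2, −0.014 to 0.24 for Ep300, −0.40 to 1.91 for Chga, −0.43 to 0.027 for Cox4i1, −0.0010 to 0.31 for Esr1, −0.40 to 0.060 for Gper1 and −0.27 to 0.031 for Nos3. Esr1 was −0.088 in the n libraries, and Egr2 0.065 and Nos3 0.22 in the o libraries. At depths of 27 and 170 reads for Greb1, and 3 and 2 for Esr2, counting error limits what can be said of these genes.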

Other observations

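Clock genes were 16 higher and 6 lower of 22 with E2 (median log2 difference 0.078). Cry2, a repressor of the clock, was at 9.79, 6.62, 19.4 and 11.4 CPM in vehicle o1, o2, n1 and n2 and at 11.7, 13.4, 34.9 and 23.5 CPM with E2, higher in all 4 pairs at a blocked adjusted p of 0.235 in edgeR and 0.0438 in DESeq2. Hypoxia and glycolysis genes were 21 higher and 11 lower of 32 (0.10), unfolded protein and heat shock genes 18 and 14 of 32 (0.033), cholesterol genes 21 and 15 of 36 (0.058), and immediate early genes 17 and 16 of 33 (0.016). Markers of neurons and Schwann cells were 14 higher and 7 lower of 21 (0.16), with sums of 214 to 473 CPM with vehicle and 147 to 702 CPM with E2. The block turned that split to 9 higher and 12 lower (−0.072), and leaving out E2 n2 gave 8 and 13 (−0.37). Immediate early genes were 13 higher and 20 lower without vehicle o2 (−0.032), and 23 and 10 without vehicle n1 (0.14). Unfolded protein and heat shock genes were 15 and 17 without E2 n1 (−0.032). EdgeR called no gene of these lists with or without the block, and DESeq2 called 1, Cry2, with it.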
